A study of Mus musculus with 8 samples.

Results

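The genes described here are caspases and necroptosis kinases: the kinases Ripk1 and Ripk3, the caspases Casp2, Casp6, Casp8 and Casp9, and the caspase-activating adaptor Apaf1. They were picked by symbol, as 7 names, and 6 of them have a row among the 13101 genes of the gene table; Casp9 matched no row and was not analysed here. RNA was measured by polyA RNA-seq in 8 pools of mouse embryos at the 2-cell stage, all of C57BL/6 background and harvested from timed matings, with 12 to 18 embryos in a pool. A first group of 4 pools carried a knockout of Dux (Dux KO) and the other 4 were wild type (WT). DUX is a homeobox factor made at the onset of embryonic transcription. The labels give no further agent, describe neither the knockout allele nor the parents, and leave unsaid whether separate litters went into the pools. The p-values below therefore refer to pool-to-pool spread, which may be technical.

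Caspases are proteases that cut their targets after aspartate and that dismantle the cell in apoptosis. In the death receptor pathway CASP8 is switched on next to the kinase RIPK1, and where CASP8 is not active RIPK1 can pass the signal to RIPK3, which through MLKL opens the plasma membrane in necroptosis. In the mitochondrial pathway cytochrome c binds APAF1, which gathers CASP9 in the apoptosome, and executioner caspases follow. Cleavage-stage mouse embryos can fragment with features of apoptosis, and CASP8 is needed later in development to hold RIPK3 in check.

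The promoters of Ripk3 and Casp6 are shown because these genes made the largest rise and the only fall in the set. Each line holds the 250 bases before the RefSeq start, 5′ to 3′ on the strand of the gene (GRCm38.p6), at chr14:55788858-55789107 on the minus strand for Ripk3 and at chr3:129901165-129901414 on the plus strand for Casp6. Capitals mark a GC box (GGGCGG) in both and, in Ripk3, an E-box (CACGTG) before it.
Ripk3: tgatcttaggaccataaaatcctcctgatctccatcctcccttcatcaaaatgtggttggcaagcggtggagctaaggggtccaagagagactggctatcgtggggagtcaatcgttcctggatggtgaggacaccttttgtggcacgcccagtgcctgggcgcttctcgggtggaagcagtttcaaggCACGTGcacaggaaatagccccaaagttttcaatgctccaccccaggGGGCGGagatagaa
Casp6: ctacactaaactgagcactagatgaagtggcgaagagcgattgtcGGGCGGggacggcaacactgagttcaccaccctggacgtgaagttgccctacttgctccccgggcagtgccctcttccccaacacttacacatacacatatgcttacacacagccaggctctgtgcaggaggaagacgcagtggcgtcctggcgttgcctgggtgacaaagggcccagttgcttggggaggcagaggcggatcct
All 6 genes matched the RefSeq promoter table, with 7 windows, since Ripk1 has a further start. The GC box, searched on both strands, was in 6 of the 7 windows and in 32.7% of all 32851 windows of the same length. Bases G and C made up 54% to 75.6% of those 6 windows, against a median of 52.4% over all windows. The 2 shares are therefore not of like base composition. The E-box was in the Ripk3 window alone, 61 bases before the start, and in 6.02% of all windows. CCAAT was in the windows of Casp2 and Casp8 (33.8% of all windows), and TATAAA in none (12.4% of all). No found motif overlapped another. These letters are a description of the windows and show no bound factor.

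Ripk3 was the gene of the set with the largest difference: its RNA rose in Dux KO. Ripk1, Casp8 and Casp2 also rose, Casp6 fell, and Apaf1 did not pass. Thus 4 of 6 were higher and 1 of 6 was lower (limma on log2(FPKM + 1), adjusted p under 0.05 over all genes tested). Of all 12434 genes tested 33.6% passed, 15.5% higher and 18.1% lower. The pools of the 2 groups did not overlap for the same 5 genes, 4 higher and 1 lower, against 33.1% of all genes tested, 15.0% higher and 18.1% lower. With 6 genes the 1 that fell is near the background share. The median log2 fold change was 0.62 over the 6 genes and -0.025 over all genes tested. FPKM counts fragments per kilobase of gene, scaled to library size, and fold changes on log2(FPKM + 1) understate the change of genes at a low level.

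The libraries held 12343369 to 14548526 gene reads, recovered from the steps of the FPKM values. Dux itself matched no row and gave no check of the labels; MERVL-int, the internal part of a retrovirus that DUX is known to activate, was at 11360 to 16381 FPM (fragments scaled to library size) in WT and 4548 to 6050 FPM in Dux KO. All 8 markers of the 2-cell embryo and all 9 of the oocyte had a row, with summed levels of 1458 to 1806 and 6260 to 7441 FPKM in WT. In Dux KO the sums were 712 to 1134 and 5138 to 8497 FPKM. Of the 2-cell markers 2 fell, among them Obox6, which makes up most of that sum (1351 ± 166 to 729 ± 202 FPKM). The overlapping oocyte sums hold changes in both directions: Bmp15 and Oosp1 rose, Zp3, Dppa3 and Padi6 fell, and 4 of the 9 did not pass. Of 11 cumulus and granulosa markers 5 had a row. Only Cyp19a1 among them passed, higher in Dux KO, with means of 0.420 ± 0.147 (WT) and 1.06 ± 0.311 FPKM (Dux KO). It reached the mean of 0.5 FPKM needed for testing only through the Dux KO pools, so its call is given as a description. The sum of the 5 markers was 1.55 to 11.8 FPKM in WT and 6.97, 7.12, 23.6 and 34.8 FPKM in Dux KO replicates 3, 1, 4 and 2. Oviduct markers (2 of 6 with a row) summed to 127 to 147 FPKM in WT and 87.2 to 124 FPKM in Dux KO. Most of this was Epcam, which fell from 132 ± 11.4 to 90.4 ± 19.5 FPKM, while Ovgp1 was at 4.96 ± 4.53 and 10.5 ± 8.52 FPKM and did not pass. Of the 9 blood and macrophage markers 1 had a row (Cd68), at 1.33 to 5.61 FPKM in the WT pools and 1.77 to 4.88 FPKM in the Dux KO pools, and none of the 6 sperm markers had one.

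Ripk3, the kinase that commits a cell to necroptosis (ENSMUSG00000022221, chromosome 14 at 55784995 to 55788865, GRCm38, minus strand), was at 0.781, 0.848, 2.39 and 0.895 FPKM in WT replicates 1 to 4. Dux KO replicates 1 to 4 held 10.52, 6.66, 8.74 and 12.5 FPKM. Every Dux KO pool lay above every WT pool, and WT replicate 3 stood apart from the other WT pools. The mean rose from 1.23 ± 0.776 to 9.60 ± 2.49 FPKM (SD, n = 4), which is 7.82-fold. On the log2 scale the change was 2.27 (SE 0.24, 95% interval 1.74 to 2.81, limma adjusted p = 0.000994), the 6th largest rise among the genes tested. The reads behind these values were 22, 27, 66 and 27 in WT and 350, 240, 297 and 399 in Dux KO, so that the WT level rested on few reads. Without WT replicate 3 the log2 fold change was 2.50. Dux KO replicate 2, with the highest sum of cumulus and granulosa markers, had the lowest Ripk3 of its group, while replicate 4, second in that sum, had the highest. The part of other cells in these values was not tested, and in pools of whole embryos a change in the number of cells that hold a transcript and a change in its amount per cell cannot be told apart.

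Ripk1, which sits upstream of both CASP8 and RIPK3 (ENSMUSG00000021408, chromosome 13 at 34002363 to 34037147, plus strand), was at 1.57, 2.01, 1.44 and 0.865 FPKM in WT replicates 1 to 4. In Dux KO it was at 3.58, 5.07, 2.13 and 2.74 FPKM. The groups did not overlap, but the highest WT pool and the lowest Dux KO pool lay close together. Its mean rose 2.30-fold, from 1.47 ± 0.472 to 3.38 ± 1.27 FPKM (log2 fold change 0.80, SE 0.22, limma adjusted p = 0.0199), on 95 to 233 reads per WT pool and 264 to 665 per Dux KO pool. The call ended without WT replicate 4 (0.67, limma adjusted p = 0.0593) and without Dux KO replicate 1 (0.77, limma adjusted p = 0.0530). Ripk1 shares 241 exon bases with Serpinb6a on the opposite strand and 511 with the pseudogene Gm17084 on its own strand. The strand setting of the counting is not given in the sources used here, so reads in the Serpinb6a overlap could belong to either gene. In the overlap with Gm17084 they could belong to either gene under any strand setting. Serpinb6a was low (0.390 ± 0.104 FPKM for WT, 0.574 ± 0.255 FPKM for Dux KO), below the limit for testing, and Gm17084 had no row.

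Casp8, the initiator caspase of the death receptor pathway and the brake on necroptosis (ENSMUSG00000026029, chromosome 1 at 58795374 to 58847503, plus strand), had the lowest mean of the set in WT. WT replicates 1 to 4 held 1.18, 0.921, 0.258 and 1.05 FPKM, and Dux KO replicates 1 to 4 held 2.33, 4.09, 2.59 and 1.46 FPKM. That rank rests on WT replicate 3: Ripk3 lay below Casp8 in 3 of 4 WT pools, and without that replicate the WT means were 1.05 FPKM for Casp8 and 0.841 FPKM for Ripk3. All Dux KO pools were above all WT pools, by a narrow margin between Dux KO replicate 4 and WT replicate 1. The mean rose 3.07-fold, from 0.853 ± 0.410 to 2.62 ± 1.09 FPKM (log2 fold change 0.95, SE 0.24, limma adjusted p = 0.0130). WT replicate 3 held 9 reads of Casp8 and the other WT pools 37 to 42, against 59 to 186 in Dux KO. On scales that shrink low values less, the log2 fold change was 1.66 by edgeR and DESeq2 on recovered reads and 1.58 with a pseudocount of 0.1.

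Casp2, an initiator caspase that is activated on the PIDDosome, for example after faulty cell division (ENSMUSG00000029863, chromosome 6 at 42264985 to 42282508, plus strand), changed least among the genes that passed. WT replicates 1 to 4 held 1.69, 1.46, 1.07 and 1.12 FPKM, and Dux KO replicates 1 to 4 held 1.96, 2.31, 1.86 and 2.58 FPKM. The groups did not overlap, yet the gap between them was smaller than the range within either. Its mean rose 1.63-fold, from 1.34 ± 0.295 to 2.18 ± 0.330 FPKM (log2 fold change 0.45, SE 0.15, limma adjusted p = 0.0412). The call ended in 10 of 19 alternatives, 6 of which left out a single pool: WT replicates 2, 3 or 4 or Dux KO replicates 1, 2 or 4, with limma adjusted p of 0.0571 to 0.104. With a replicate block the limma adjusted p was 0.0527. On recovered reads the log2 fold change was 0.74 by edgeR and by DESeq2, and it passed in both.

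Casp6, an executioner caspase known for cutting lamin A (ENSMUSG00000027997, chromosome 3 at 129901425 to 129914103, plus strand), was the most abundant of the set in WT, at 9.47, 9.60, 10.2 and 14.7 FPKM in replicates 1 to 4. In Dux KO it was at 4.59, 4.57, 7.89 and 4.77 FPKM. No Dux KO pool reached the lowest WT pool, and 1 pool of each group stood above its 3 neighbours, WT replicate 4 and Dux KO replicate 3. Its mean fell from 11.0 ± 2.501 to 5.45 ± 1.63 FPKM, 0.495 times the WT level (log2 fold change -0.91, SE 0.20, 95% interval -1.35 to -0.46, limma adjusted p = 0.00913). These values rest on 650 to 1083 reads per WT pool and 371 to 653 per Dux KO pool.

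Apaf1, the scaffold of the apoptosome (ENSMUSG00000019979, chromosome 10 at 90989311 to 91082770, minus strand), had the least spread between pools relative to its mean. The SD was 13.2% of the mean in WT and 5.92% in Dux KO. WT replicates 1 to 4 held 5.70, 7.20, 6.22 and 7.61 FPKM, and Dux KO replicates 1 to 4 held 5.28, 5.21, 5.78 and 5.84 FPKM. The groups overlapped, since WT replicate 1 lay below Dux KO replicates 3 and 4. The means were 6.68 ± 0.880 and 5.53 ± 0.327 FPKM, and the difference did not pass (log2 fold change -0.23, 95% interval -0.56 to 0.10, limma adjusted p = 0.247). That interval leaves room for a fall of 0.56 on the log2 scale, on 632 to 905 reads per pool. All 6 genes had a WT mean above the limit of 0.5 FPKM for testing, so none was tested only because it was high in Dux KO.

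**Figure D1:**
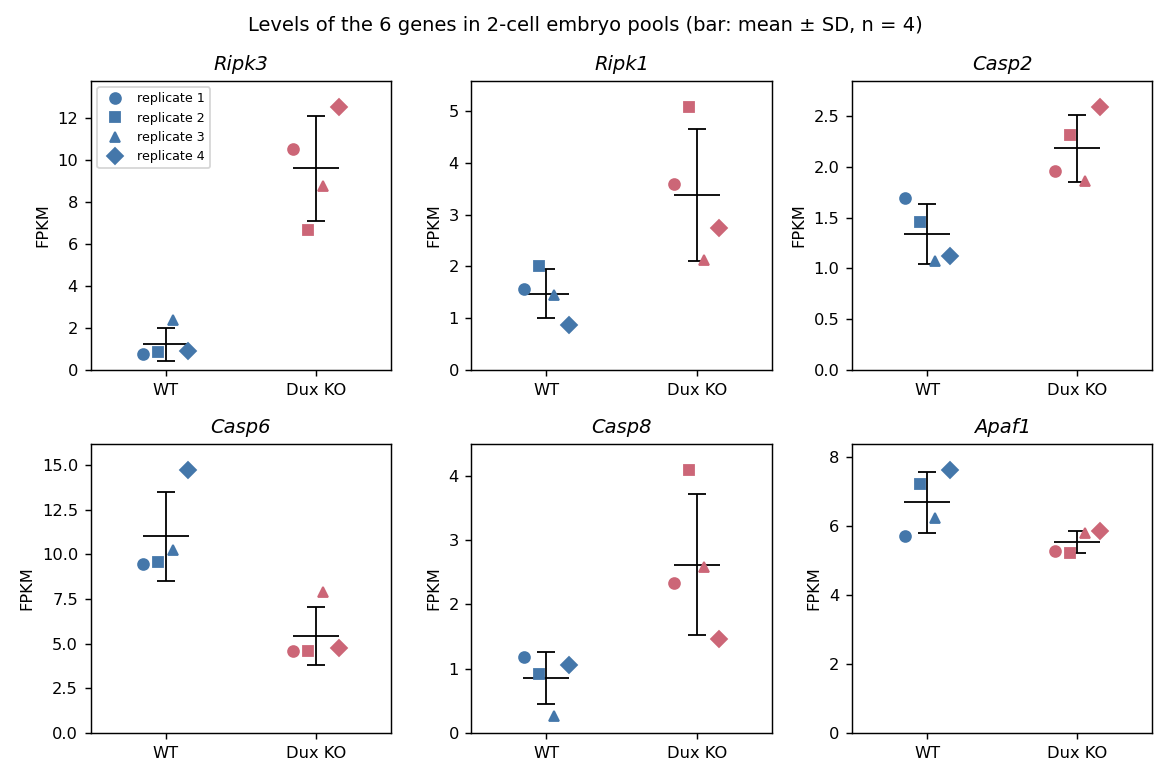
Level of each gene in FPKM (vertical axes from 0) in the 4 WT pools (blue) and 4 Dux KO pools (red); marker shapes give the replicate number, and black bars the mean ± SD. Ripk3 lies at 6.66 to 12.5 FPKM in Dux KO and at 0.781 to 2.39 FPKM in WT, while Casp6 lies lower in Dux KO and Apaf1 overlaps.

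The order of the genes by level per length differed between the groups of pools. In WT it ran from Casp6 (11.0 FPKM) over Apaf1 (6.68) to Ripk1 (1.47), Casp2 (1.34), Ripk3 (1.23) and Casp8 (0.853). The ranges of Casp6 and Apaf1, and of Apaf1 and Ripk1, were separate over the WT pools, whereas the last 4 overlapped with their neighbours in the order and changed order when WT replicate 1, 2 or 3 was left out. In Dux KO Ripk3 came first (9.60 FPKM), with a range above that of Apaf1 (5.53), and then followed Casp6 (5.45), Ripk1 (3.38), Casp8 (2.62) and Casp2 (2.18), each overlapping with the next.

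Ratios of FPKM between genes of the same pool show how the balance of the set differed, and were not tested. Ripk3 was at 0.0607 to 0.233 times the level of Casp6 in WT and at 1.11 to 2.62 times in Dux KO, with no overlap. The ranges of both genes were separate in opposite directions, so this outcome was fixed by the values above and is no further result. Against Ripk1, its binding partner, Ripk3 stood at 0.498, 0.422, 1.66 and 1.03 times in WT replicates 1 to 4 and at 2.94, 1.31, 4.10 and 4.57 times in Dux KO, so that WT replicate 3 reached into the Dux KO range. The ratio of Ripk3 to Casp8 overlapped as well: it was 0.661 to 0.921 in WT replicates 1, 2 and 4, 9.26 in WT replicate 3, and 1.63 to 8.54 in Dux KO. Casp6 was at 8.02 to 39.7 times the level of Casp8 in WT and at 1.12 to 3.26 times in Dux KO. That separation was likewise fixed by the separate ranges of Casp6 and Casp8.

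**Figure D2:**
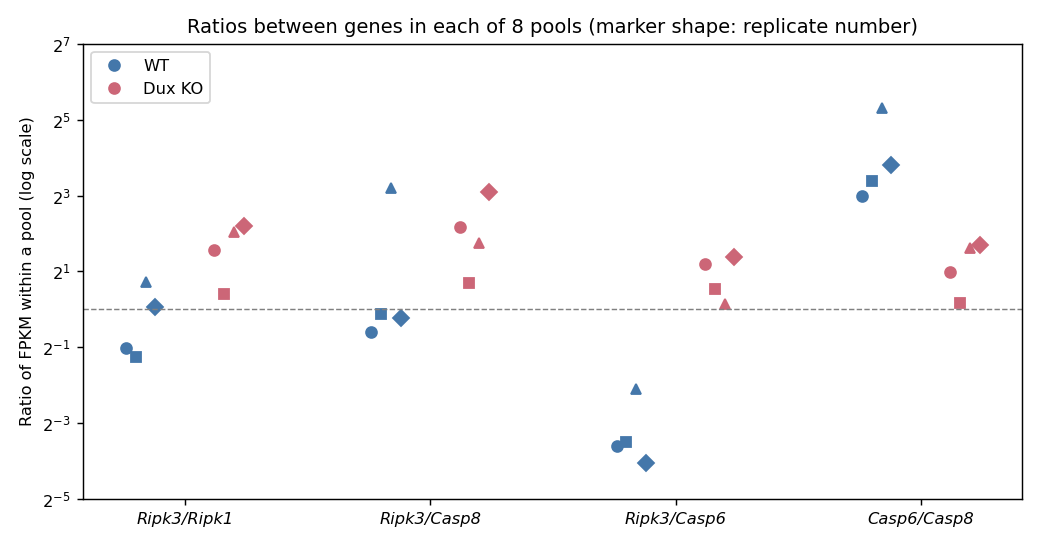
Ratio of FPKM between genes within each pool (log axis, base 2), WT in blue and Dux KO in red, with marker shape for the replicate number and a dashed line at equal levels. Ripk3/Casp6 and Casp6/Casp8 separate the groups, which the separate ranges of their genes fixed beforehand. WT replicate 3 lies in or above the Dux KO range for the 2 other ratios.

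Within Dux KO the pool with the highest Ripk1 and Casp8 was not the pool with the highest Ripk3. Replicate 2 had the highest Ripk1 (5.07 FPKM) and Casp8 (4.09 FPKM) of the 4 pools and the lowest Ripk3 (6.66 FPKM). Replicate 4 had the highest Ripk3 (12.5 FPKM) and the lowest Casp8 (1.46 FPKM). In WT, replicate 3 combined the highest Ripk3 (2.39 FPKM) with the lowest Casp8 (0.258 FPKM). Each of these orders is over 4 pools and is given as a description.

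Genes around these loci moved in both directions. The nearest tested genes to Ripk3 were Nop9, 29494 bases away, which fell (log2 fold change -0.87, limma adjusted p = 0.00995), and Sdr39u1, which did not pass (0.066, limma adjusted p = 0.817). Bphl begins 449 bases after the end of Ripk1 and rose from 1.26 ± 0.134 to 2.12 ± 0.412 FPKM (limma adjusted p = 0.0332), while Nqo2 on the other side fell (limma adjusted p = 0.0465). Gm28802, 2581 bases past Casp8 on the opposite strand, rose from 1.06 ± 0.480 to 5.65 ± 2.00 FPKM (1.68 on the log2 scale, limma adjusted p = 0.00207). Cflar, the neighbour of Casp8 on its other side and its catalytically inactive relative, did not pass. The neighbours of Casp6, Pla2g12a and Mcub, did not pass either, nor did those of Casp2, Sva and Zyx. Ikbip, 169 bases from the start of Apaf1 and on the other strand, fell (log2 fold change -0.85, limma adjusted p = 0.0201) where Apaf1 itself did not pass. Anks1b, on the other side of Apaf1, had means of 0.452 ± 0.257 (WT) and 0.915 ± 0.111 FPKM (Dux KO). It reached the limit for testing only through the Dux KO pools, so its call (log2 fold change 0.41, limma adjusted p = 0.0406) is given as a description.

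The genes with the most similar profile over the 8 pools were found by the root mean square difference of log2(FPKM + 1), each gene centred on its own mean, among 9502 candidates. This measure follows the gap between the groups as well as the pools within them. For Ripk3 they were Stra8, a gene of the start of meiosis (0.254), and Reep1, which shapes the endoplasmic reticulum (0.339), against a spread of 1.19 of Ripk3 about its own mean. For Ripk1 they were Wrn (0.107) and Slc30a3 (0.114), for Casp8 Hsd17b13 (0.152) and Grm4 (0.160), and for Casp2 Dlst (0.0607) and Igsf3 (0.0687). For Casp6 the splicing factor Slu7 (0.103) and Cdk10 (0.105) came closest. Apaf1 was most like Sec24a (0.0546) and Crebl2 (0.0608).

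The other genes of these pathways were mostly not higher. Of 63 genes listed, 45 had a row and 43 were tested, of which 2 rose, 12 fell and 29 did not pass. Those shares are 4.65% higher and 27.9% lower, beside the 15.5% and 18.1% of all genes tested, and the median log2 fold change was -0.13. Ticam1, counted among the genes that fell, reached the limit for testing only through the WT pools. The 14 pathway genes that changed numbered 8, 7 and 9 when WT replicate 4, Dux KO replicate 1 or Dux KO replicate 2 was left out.

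Partners of the death receptors and of the necrosome had 5 of 13 genes tested, with 2 lower (Ticam1 and Traf2) and none higher (median -0.31). Mlkl, the membrane effector of RIPK3, and Zbp1, Fas, Tnf and Tnfrsf1a had no row and were not analysed here. Ticam1, the adaptor TRIF that can engage RIPK3 downstream of Toll-like receptors, spanned 0.770 to 1.96 FPKM over the WT pools and 0.161 to 0.406 FPKM over the Dux KO pools. Its mean fell from 1.31 ± 0.492 to 0.249 ± 0.109 FPKM (-0.86 on the log2 scale, limma adjusted p = 0.0042). It reached the limit of 0.5 FPKM for testing only through the WT pools, so its call is given as a description, also where it is counted. The log2 fold change was -1.99 with a pseudocount of 0.1 and -2.33 by edgeR on recovered reads. Traf2, a ubiquitin ligase adaptor of the TNF receptor complex, fell from 5.17 ± 1.43 to 2.68 ± 0.408 FPKM (log2 fold change -0.73). Cflar, which pairs with CASP8 and limits it, held 1.36, 1.49, 0.662 and 1.41 FPKM in WT replicates 1 to 4, and 2.46, 2.37, 1.62 and 1.44 FPKM in those of Dux KO. The groups overlapped for Cflar, and its log2 fold change of 0.42 did not pass (limma adjusted p = 0.0955). It passed in 2 of 19 alternatives, by limma when Dux KO replicates 3 and 4 were left out (0.63, adjusted p = 0.0481) and by DESeq2 on recovered reads (0.72, adjusted p = 0.0349).

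Genes for the control of RIPK1 by ubiquitin and by kinases had 16 of 19 tested, with 4 lower and none higher (median -0.16). Tnip1, which binds linear ubiquitin and restrains TNF signalling, fell most in this list, with 12.8 to 18.7 FPKM over WT pools and 4.38 to 7.47 FPKM over Dux KO pools (means 14.7 ± 2.71 and 5.43 ± 1.40, log2 fold change -1.29, limma adjusted p = 0.00223). Rbck1, a subunit of the linear ubiquitin ligase, fell from 3.55 ± 0.290 to 1.78 ± 0.202 FPKM. Otulin, which removes linear ubiquitin, fell from 41.6 ± 6.44 to 23.6 ± 6.06 FPKM (log2 fold changes -0.71 and -0.82). The kinase gene Chuk was the remaining gene that fell, by 0.41 on the log2 scale. Birc3, a ubiquitin ligase for RIPK1, was at 18.0 ± 2.19 and 17.9 ± 4.37 FPKM and did not pass.

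In the apoptosome and mitochondrial release list 9 of 10 genes were tested, with 1 higher and 2 lower (median 0.054). Aifm1, a flavoprotein of the mitochondrial intermembrane space, fell from 16.9 ± 1.36 to 10.01 ± 1.56 FPKM (-0.71 on the log2 scale, limma adjusted p = 0.00778). Diablo, which relieves caspase inhibition once released, fell from 4.03 ± 0.370 to 2.55 ± 0.327 FPKM, a call that ended in 3 of 19 alternatives, among them without WT replicate 4 (limma adjusted p = 0.0687) and without Dux KO replicate 1 (limma adjusted p = 0.0788). Htra2, a mitochondrial protease with a like role, rose from 1.23 ± 0.502 to 2.61 ± 0.474 FPKM (0.71 on the log2 scale, limma adjusted p = 0.015). Bid, the substrate that links CASP8 to mitochondria, was at 18.6 ± 3.92 and 19.1 ± 2.27 FPKM and did not pass, and neither did Cycs, which encodes cytochrome c.

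Of 4 genes tested from the list of caspase inhibitors 1 rose and 1 fell. Naip1 stands in that list by its family and is not taken here to inhibit caspases. Naip1 rose from 0.698 ± 0.312 to 1.90 ± 0.785 FPKM (log2 fold change 0.75), though it has near-identical relatives among which reads may be split. Its call ended in 3 of 19 alternatives, among them without WT replicate 4 (limma adjusted p = 0.0565) and without Dux KO replicate 1 (limma adjusted p = 0.051). Birc6 fell from 2.71 ± 0.569 to 1.60 ± 0.176 FPKM (log2 fold change -0.50), a call that ended in 8 of 19 alternatives. Birc5, better known from cell division, was abundant and did not pass, at 203 ± 9.90 and 186 ± 9.20 FPKM.

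Caspase substrates and genes of membrane rupture had 9 of 13 tested, with 3 lower and none higher (median 0.031). Parp1, a DNA repair enzyme cut in apoptosis, fell from 5.33 ± 2.02 to 2.43 ± 0.962 FPKM, with overlap between WT replicate 3 (2.79 FPKM) and Dux KO replicate 3 (3.80 FPKM). Dffa, the inhibitor of the caspase-activated nuclease, fell from 6.89 ± 1.77 to 4.27 ± 0.315 FPKM (log2 fold changes -0.86 and -0.56). Pak2 fell from 25.5 ± 2.06 to 17.9 ± 3.32 FPKM. These 3 calls ended in 6 of 19, 8 of 20 and 8 of 20 alternatives. Rock1, a kinase behind membrane blebbing, was at 39.6 ± 5.37 and 49.9 ± 7.11 FPKM and did not pass, except with quantile normalization (0.50 on the log2 scale, limma adjusted p = 0.0345).

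**Figure D3:**
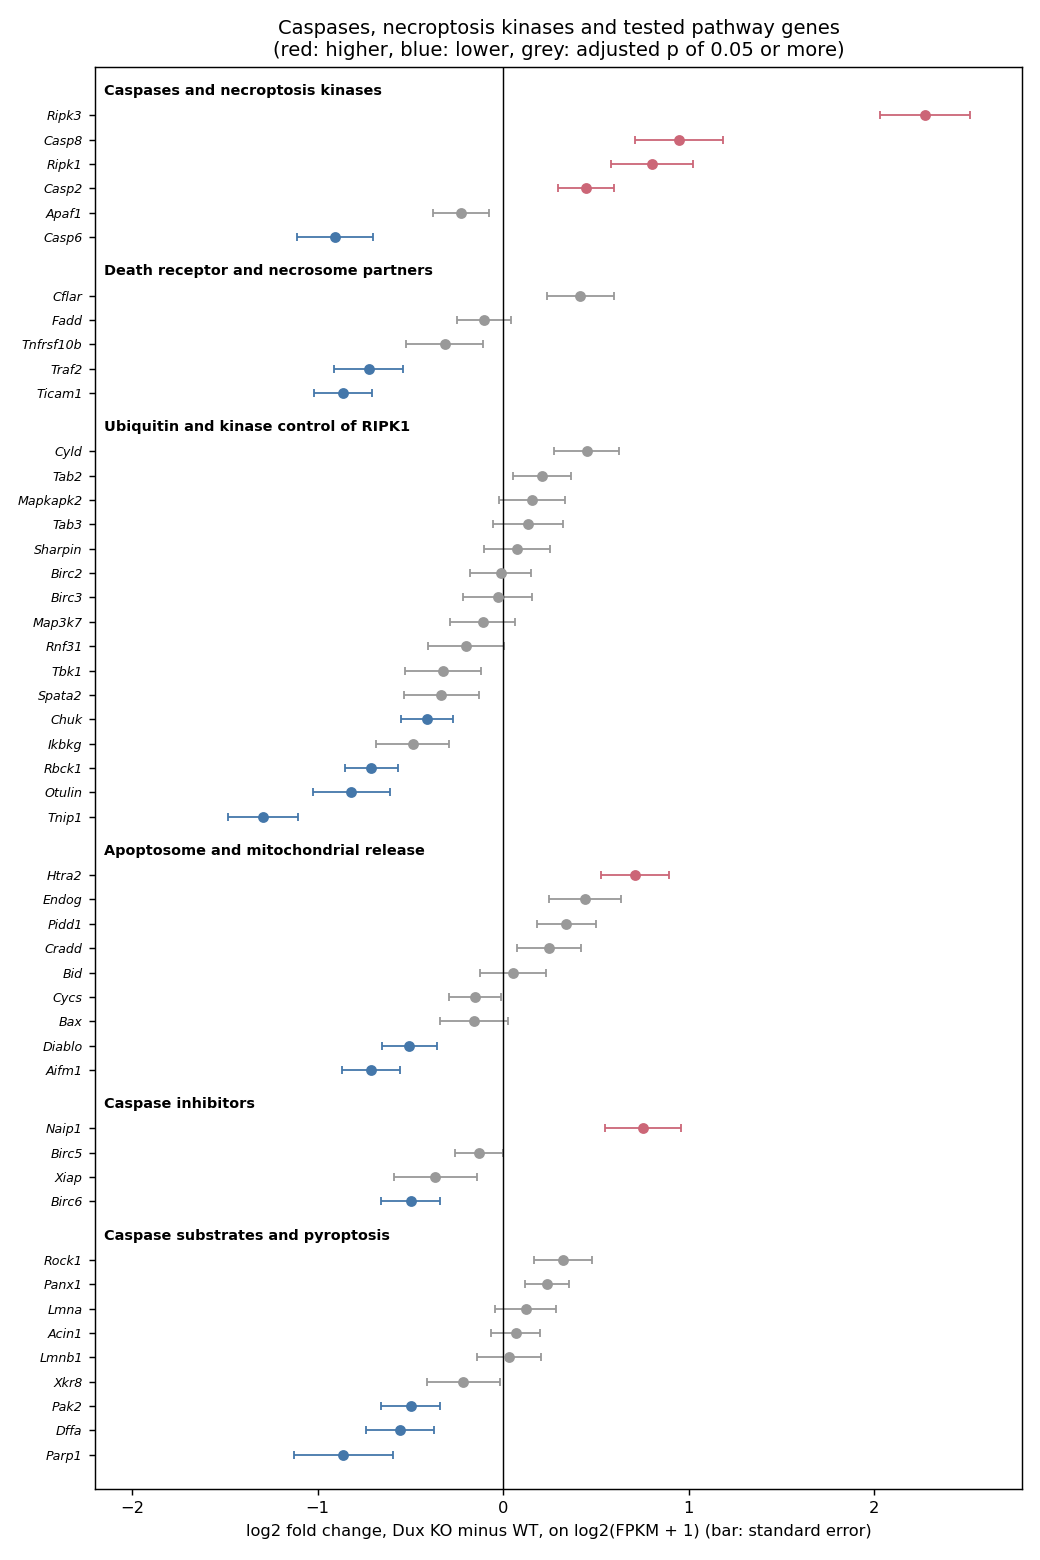
Log2 fold change of Dux KO minus WT on log2(FPKM + 1) for the 6 genes and the 43 tested pathway genes, grouped by list; bars are standard errors, red and blue mark genes that rose or fell and grey those that did not pass. Ripk3 stands at 2.27, beyond every pathway gene drawn, and Tnip1 at -1.29 is the lowest on this scale, while Ticam1 is lower with a pseudocount of 0.1 (-1.99 against -1.43) and by edgeR (-2.33 against -1.40).

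The calls differed in how firmly they held. Ripk3 passed in all 20 alternatives run, with log2 fold changes of 2.13 to 3.02 and adjusted p up to 0.00915. Casp6 passed in 19 of 20 and Casp8 in 18 of 19, Ripk1 in 16 of 19 and Casp2 in 9 of 19. Apaf1 passed in none of 20. Without Dux KO replicates 1 and 2 together, Ripk3 alone kept its call. The authors' deposited table gives log2 fold changes of 2.97 for Ripk3, 1.20 for Ripk1, 1.62 for Casp8, 0.71 for Casp2, -1.01 for Casp6 and -0.27 for Apaf1.

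**Figure D4:**
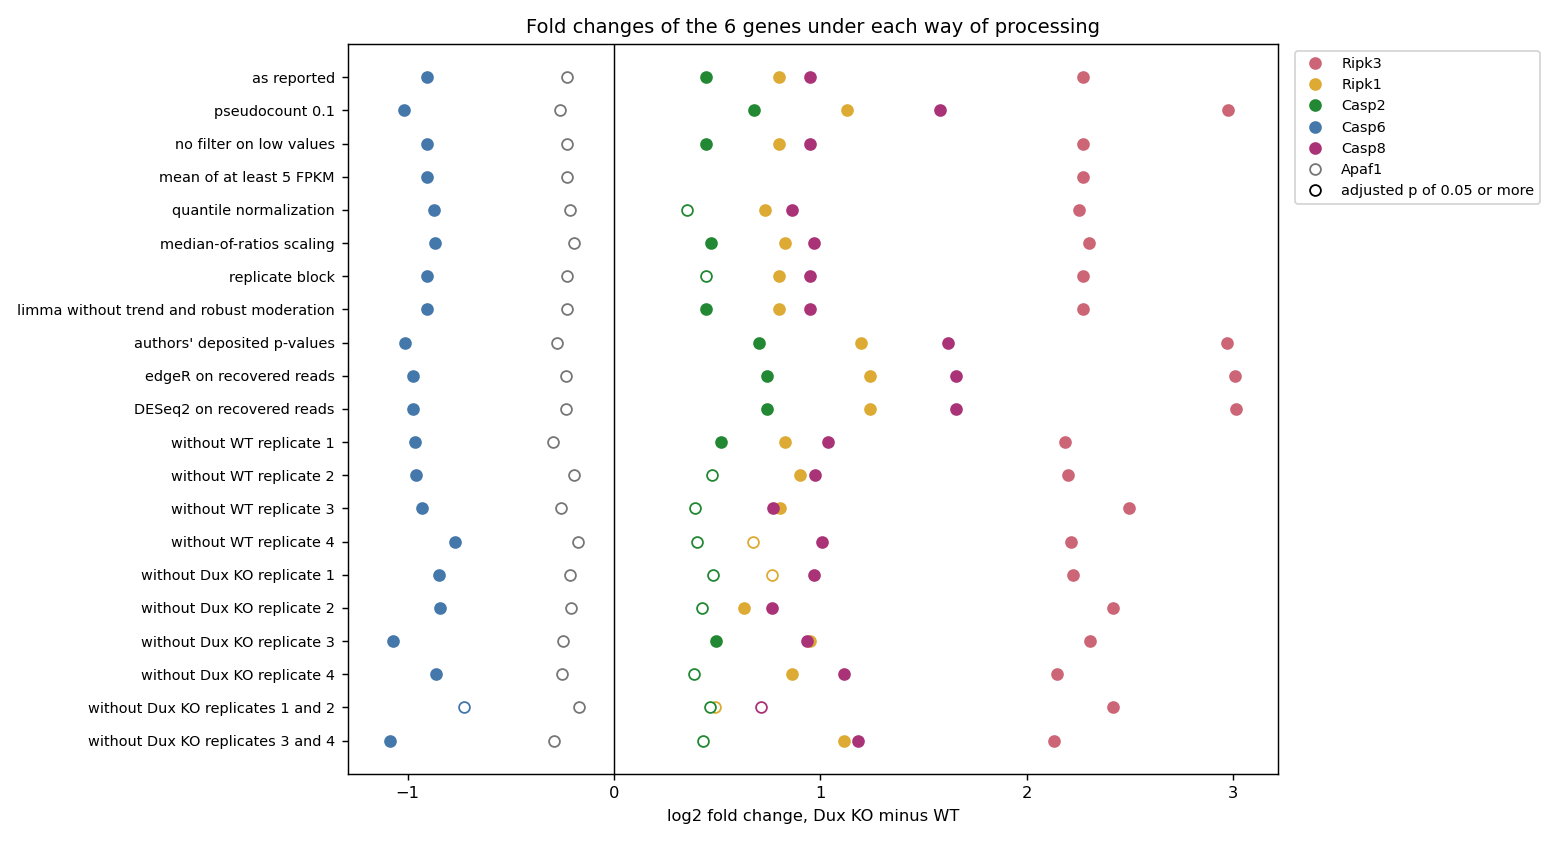
Log2 fold change of each gene (horizontal axis, Dux KO minus WT) under each way of processing or set of pools (rows); filled points have an adjusted p under 0.05. No gene crossed 0 in any row, Ripk3 stayed at 2.13 or more, and Casp2 was open in 10 of the 19 alternatives that gave it a value.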

How the data were processed

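RNA-seq libraries of 8 embryo pools were grouped by their labels, 4 WT and 4 Dux KO. Per the submitters' processing notes, Trimmomatic 0.32, STAR 2.6.1a, SAMtools 1.7 and the build GRCm38 (mm10) were used; the sources used here do not give the read counter, annotation, strandedness or deposited test. The authors deposited FPKM per gene, a signal of FPM (fragments scaled to library size) per repeat, a mean signal over samples, a log2 fold change and an adjusted p-value. The gene table holds no row with a mean signal under 25.0, so low genes had been left out before. Whole reads were recovered from these deposited values, with 100% of values whole within 0.05 of a read; that the FPKM values carry size factors is an inference from this.

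Expression was tested with limma 3.58.1 (R 4.3.3, variance trend, robust moderation) on log2(FPKM + 1). The 12434 genes whose mean reached 0.5 FPKM entered, with Benjamini-Hochberg adjustment over all of them, after a test on simulated data. The simulation used 1 setting of spread for all genes and far fewer changed genes than were called here. It therefore gives no error rate for these data. Alternatives were a pseudocount of 0.1, other filters and scalings, a replicate block, edgeR 4.0.16 and DESeq2 1.42.0 on recovered reads, the deposited p-values and leaving out pools. Genes, pathway lists and marker lists were chosen with earlier results of these data known. Named pathway genes are, per list, up to 3 of largest change in each direction and the most abundant that did not pass; others were named after their values were seen. A further list that had been planned is not reported here and is left out of the pathway counts. Coordinates are from GENCODE M21 and promoters from RefSeq (GRCm38.p6). Each pair of same-group libraries differed beyond sampling noise (chi-square per degree of freedom 13.8 to 117). Intervals cover 95%.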

Additional observations from a re-analysis of the deposited data

Results flagged for a closer look

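In groups of 4 pools, a pool was singled out where its distance to the nearest other pool as a share of the range of the group exceeded Dixon's 95% critical value. This met 5 of 48 groups examined (24 genes), where chance gives about 1 in 20. Ripk3 stood at 2.39 FPKM in WT replicate 3, against 0.781 to 0.895 FPKM in the other WT pools. Casp6 stood at 14.7 FPKM in WT replicate 4 (others 9.47 to 10.2 FPKM) and at 7.89 FPKM in Dux KO replicate 3 (others 4.57 to 4.77 FPKM). Cflar was at 0.662 FPKM in WT replicate 3, with the others at 1.36 to 1.49 FPKM, and Tnip1 at 18.7 FPKM in WT replicate 2, with the others at 12.8 to 13.7 FPKM. WT replicate 3 thus appears for both Ripk3 and Cflar, and it also held the fewest Casp8 reads (9). The cause was not tested.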

How the results depend on the processing

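Of the 5 changed genes, Ripk3 kept its call in every alternative. Without Dux KO replicates 1 and 2 the calls of Ripk1 (0.49), Casp8 (0.71), Casp2 (0.46) and Casp6 (-0.73) ended on the log2 scale, with limma adjusted p of 0.186, 0.108, 0.162 and 0.0983. With 1 pool left out in turn, Ripk1 was at 0.63 to 0.95 and lost its call without WT replicate 4 or Dux KO replicate 1, and Casp2 was at 0.39 to 0.52 and lost it without any of 6 pools. Casp2 also lost its call with quantile normalization (0.35), with the replicate block (0.45, where the limma adjusted p was 0.0527) and with Dux KO replicates 3 and 4 left out (0.43). The number of changed genes in the set was 2 of 3 tested when the mean had to reach 5 FPKM, 1 without Dux KO replicates 1 and 2, and 3 to 5 with 1 pool left out. The pathway genes gave 6, 1 and 7 to 13 changed in the same order, against 14. All genes gave 795 without Dux KO replicates 1 and 2 and 2522 to 4049 with 1 pool left out, against 4182. Without Dux KO replicates 1 and 2 the calls of Aifm1, Htra2, Otulin, Rbck1, Ticam1 and Traf2 also ended, and those 6 kept them in their other alternatives. The call of Ticam1 is a description, since it reached the limit for testing only through the WT pools.

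Signs of genes that had not passed turned for Birc3 with quantile normalization (0.079), median-of-ratios scaling (0.010), edgeR (0.038) and DESeq2 (0.039) and without Dux KO replicates 3 and 4 (0.26), and it ranged from -0.13 to 0.10 with 1 pool left out. They also turned for Bid, which ranged from -0.073 to 0.14 with 1 pool left out, and for Birc5 with quantile normalization (0.098). The labels do not say whether replicate numbers pair the pools, and the values did not settle it. Deviations of same-numbered pools correlated at -0.12, 0.33, -0.06 and 0.30. The values of 0.33 and 0.30 were the highest of all pairs of a WT and a Dux KO pool. The block raised the count of all changed genes from 4182 to 4732, and same-numbered pools were not always the most alike. Counts of reads limit the WT levels of Ripk3 (22 to 66 reads) and Casp8 (9 to 42 reads) most.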
